A study of Mus musculus with 2 samples.

Results

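The mitochondrial ribosomal protein genes of the mouse were taken as every identifier of the counts table that maps to a protein-coding symbol starting with Mrpl or Mrps and a digit. By this rule 77 of 45318 identifiers were members, 48 with an Mrpl symbol and 29 with an Mrps symbol. RNA was sequenced from GFP-marked mouse leukaemia cells driven by MLL/AF9, the product of a chromosome fusion found in acute myeloid leukaemia. The cells were sorted by GFP from the bone marrow of leukaemic C57Bl/6 mice that had received brequinar (1 library) or vehicle (1 library). Brequinar is a small molecule that blocks dihydroorotate dehydrogenase, an enzyme of the inner mitochondrial membrane that makes pyrimidines. Both groups carry the fusion and the GFP mark, and the dose, the time, the number of animals per library and the way the fusion was introduced are not stated in the sources used here. With 1 library per treatment there is no replicate error, no test between treatments and no p-value, and every comparison below is one between 2 libraries.

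The mitochondrial ribosome translates the few mRNAs encoded by mitochondrial DNA, all of which specify subunits of the respiratory chain or of ATP synthase. Its RNAs come from mitochondrial DNA, while all of its proteins are encoded in the nucleus, made in the cytosol and imported. Some of these proteins have counterparts in the bacterial ribosome and others exist only in mitochondria. The large subunit (mostly Mrpl proteins) joins amino acids, and the small subunit (mostly Mrps proteins) reads the mRNA.

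Gene counts summed to 47950714 in the brequinar library and 47935476 in the vehicle library, so 1 read was worth 0.0215 and 0.0202 CPM (TMM-scaled counts per 1000000 counts). Of the 9 markers of leukaemic and myeloid cells, 9 were detected in both libraries, with a sum of 5040 CPM with brequinar and 10355 CPM with vehicle. Of these, Mpo, Elane and Kit were at least 1.5-fold lower with brequinar and Itgam and Ptprc at least 1.5-fold higher, and Mpo alone had 979 CPM with brequinar and 5912 CPM with vehicle. Markers of maturing neutrophils, 12 of 12, were at least 1.5-fold higher with brequinar and summed to 24010 CPM, against 1564 CPM with vehicle. Erythroid markers summed to 296.8 CPM in the brequinar library and 84.3 CPM in the vehicle library, and 14 of the 14 that could be compared were at least 2-fold higher. Resident macrophage markers summed to 788 CPM with brequinar and 598 CPM with vehicle, and 6 of 8 were at least 1.5-fold higher. B cell markers summed to 39.7 and 88.3 CPM and T and NK cell markers to 10.2 and 22.9 CPM in the brequinar and vehicle libraries. No marker of any of these lists was at 0 counts in either library. These shifts between the libraries accompany every ratio below, and their part in the results was not tested. In such bulk samples, fewer cells of a type and less RNA per cell cannot be told apart.

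As a group, the mitochondrial ribosomal protein genes were at nearly the same level in both libraries. The 76 members whose mean over both libraries reached 1 CPM summed to 3381 CPM in the brequinar library and 3399 CPM in the vehicle library, a log2 ratio of the sums of -0.01 (brequinar over vehicle). As a share of all gene counts before scaling, they held 0.328% with brequinar and 0.351% with vehicle. Their median log2 ratio was -0.01, beside 0.00 for all 11504 genes that met the same minimum. The members' ratios ran from -0.94 to 0.52 with quartiles of -0.18 and 0.12, and 37 lay above 0 and 39 below, where 49.9% of all genes lay below 0. Where the libraries were scaled by total counts alone, which moves the median of all genes to -0.09, 55 of the 76 lay below 0.

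No member reached 1.5-fold upward with brequinar and 2 were at least 1.5-fold lower, Mrpl52 and Mrpl38. Of all genes, 12.7% were that much higher and 12.7% that much lower. At 2-fold no member passed in either direction, beside 6.45% of all genes higher and 4.40% lower. Past a log2 ratio of 0.32 in size, the smallest limit used, 4 members were higher and 8 lower, beside 23.2% and 23.7% of all genes. Of the members 64 of 76 (84.2%) lay within that limit, against 53.1% of all genes. Among the 7035 other genes in the members' range of mean CPM, 59.8% lay within it. The SD of the log2 ratio across genes was 0.25 for the members, 0.58 for those other genes and 0.76 for all genes. For 22 members the exact 95% counting interval of the ratio lay wholly above 1, for 27 wholly below 1, and for 27 it held 1, while 39.2% of all genes had an interval wholly above 1 and 37.7% one wholly below.

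**Figure D1:**
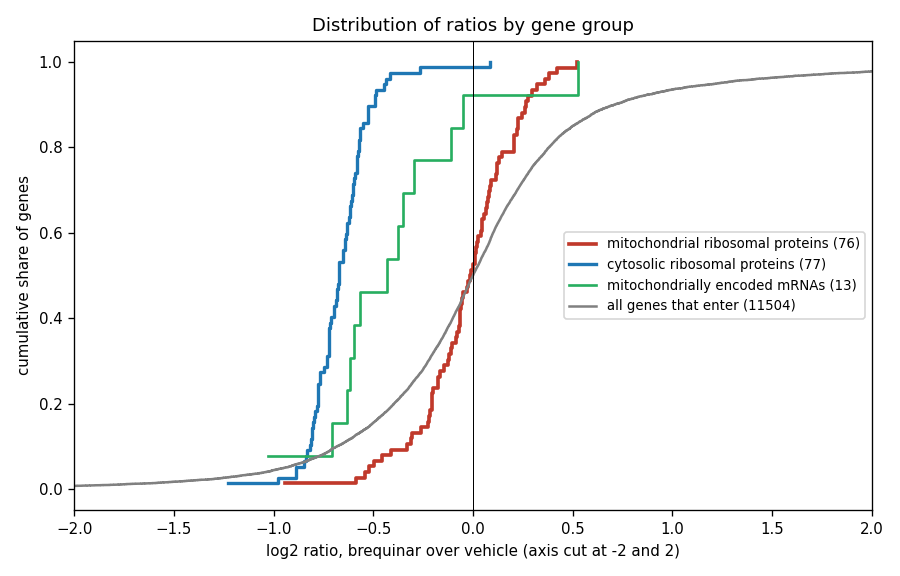
Cumulative share of genes (vertical axis) by log2 ratio of brequinar over vehicle (horizontal axis, cut at -2 and 2) for the 76 mitochondrial ribosomal protein genes, 77 cytosolic ribosomal protein genes, 13 mitochondrially encoded mRNAs and all 11504 genes. The curves of the mitochondrial and of the cytosolic ribosomal protein genes are both steep, the former centred at -0.01 and the latter at -0.67.

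The genes of the cytosolic ribosome, the most similar group by function, had another position. Of 77 cytosolic ribosomal protein genes 76 had a log2 ratio below 0, with a median of -0.67, and 57 were at least 1.5-fold lower with brequinar. Together they held 6.29% of gene counts in the brequinar library and 10.6% in the vehicle library. Rps20 had 451 CPM with brequinar and 1058 CPM with vehicle. Rpl27a had 423 and 835 CPM in the brequinar and vehicle libraries. The SD of the log2 ratio was 0.16 across the cytosolic genes and 0.25 across the members. A narrow spread was thus not particular to the members.

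**Figure D2:**
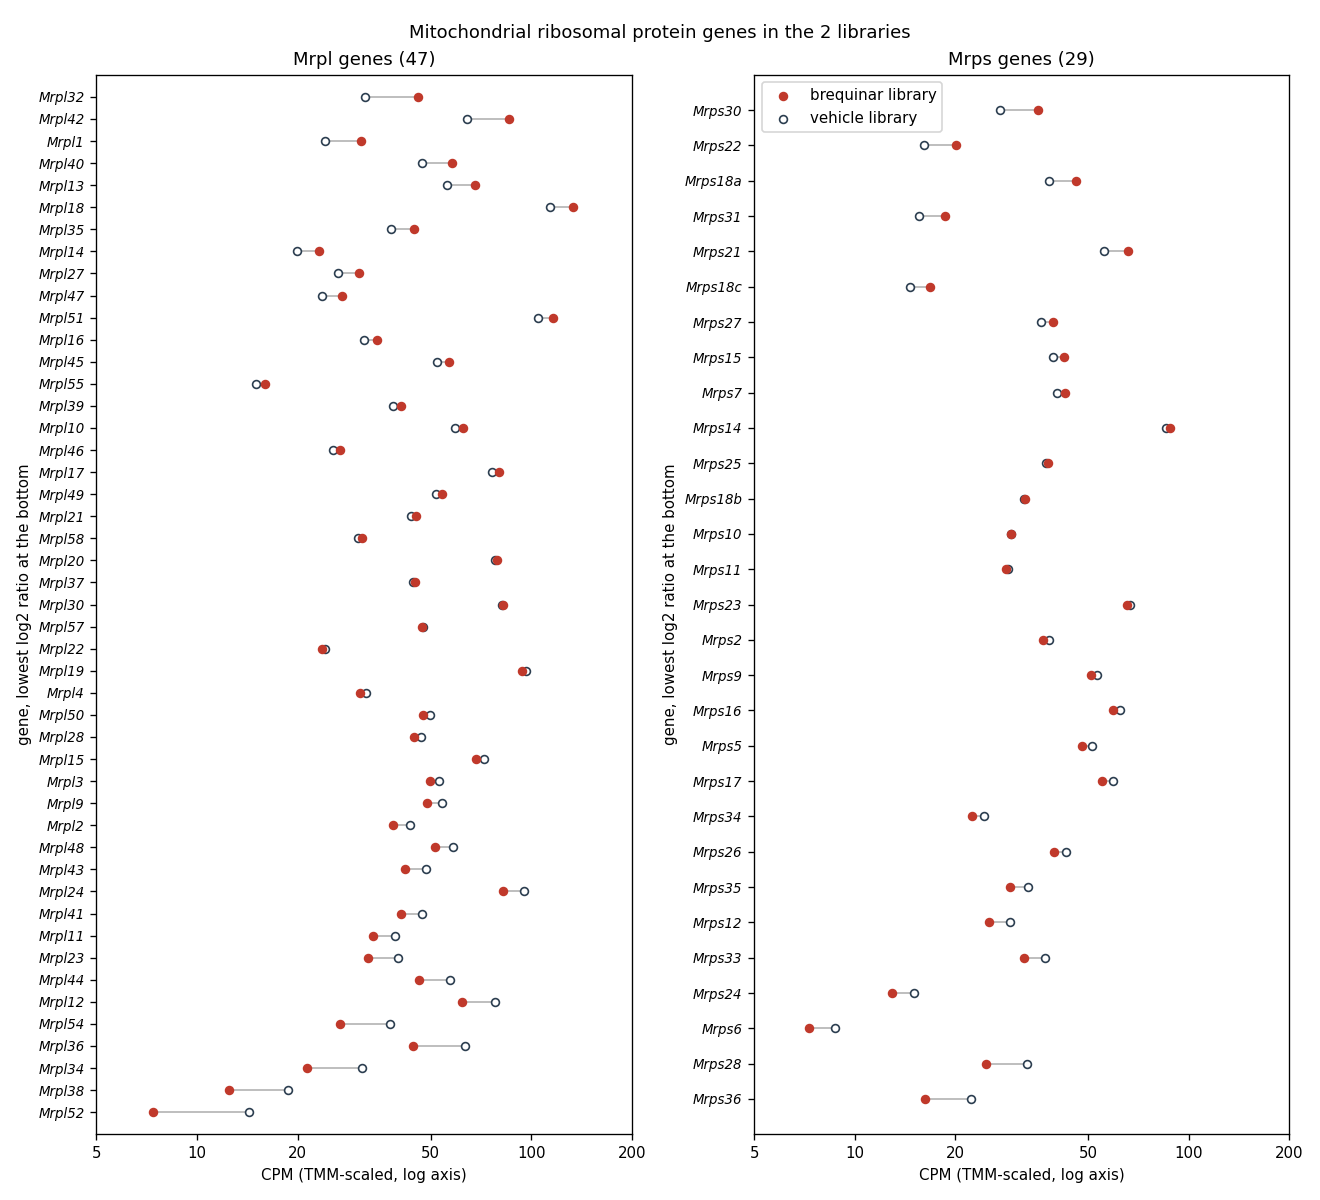
Level of each of the 76 members in the brequinar library (filled red points) and the vehicle library (open points), in TMM-scaled CPM on a log axis, with Mrpl genes on the left, Mrps genes on the right and the lowest log2 ratio at the bottom. In most rows the 2 points nearly touch, and the widest gap is that of Mrpl52, at 7.41 CPM with brequinar and 14.3 CPM with vehicle.

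The genes of the large and the small subunit had similar ratios. The 47 measured Mrpl genes summed to 2314 CPM with brequinar and 2327 CPM with vehicle, and their median log2 ratio was 0.01. The 29 Mrps genes summed to 1068 and 1072 CPM in the brequinar and vehicle libraries, and their median was -0.03. The medians differed by 0.04 and the means by -0.02 (large minus small), so the sign of the gap depended on the summary used. Both members past 1.5-fold and 6 of the 8 past the smallest limit downward were Mrpl genes. So were 3 of the 4 past that limit upward, and 47 of the 76 measured members. Grouped by place in the ribosome, 29 large-subunit proteins with a bacterial counterpart had a median of 0.01 and 20 mitochondria-specific ones had 0.03. On the small subunit the median was -0.06 for 16 proteins with a bacterial counterpart and -0.01 for 10 mitochondria-specific ones.

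Mrpl52 had the lowest ratio. It encodes a mitochondria-specific protein of the large subunit and lies at chr14:54426909-54429756 on the plus strand (GRCm38, ENSMUSG00000010406.8). The brequinar library had 344 counts and the vehicle library 707, or 7.41 CPM and 14.3 CPM, a log2 ratio of -0.94. The level was 1.93-fold lower with brequinar, with an exact interval of 1.69 to 2.2 for counting error.

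Mrpl38 followed, encoding a protein of the central protuberance, the part of the large subunit that faces the small one (chr11:116131817-116138868, minus strand). It had 577 counts (12.4 CPM) with brequinar and 925 counts (18.7 CPM) with vehicle, 1.5-fold lower with an interval of 1.35 to 1.67. Its log2 ratio of -0.59 lies at the edge of the 1.5-fold rule. The next 3 large-subunit genes stood just short of that limit, and nearer 0 with an adjustment for transcript length and GC content. Mrpl34 had 990 and 1538 counts in the brequinar and vehicle libraries (21.3 and 31.1 CPM) and a log2 ratio of -0.54. Mrpl36 had 2056 and 3139 counts (44.3 and 63.4 CPM) and -0.52. Mrpl34 and Mrpl36 encode small proteins conserved from bacteria. Mrpl54, a mitochondria-specific neighbour of the stalk, had 26.8 CPM with brequinar and 37.9 CPM with vehicle, a log2 ratio of -0.50.

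The other genes among the 8 lowest were Mrps36, Mrps28 and Mrpl12. Mrps36 had 16.3 CPM with brequinar and 22.3 CPM with vehicle (log2 ratio -0.46). Despite its symbol, Mrps36 is now known as a subunit of the 2-oxoglutarate dehydrogenase complex and not of the ribosome. Mrps28, of the small subunit, had 24.8 and 32.9 CPM in the brequinar and vehicle libraries (log2 ratio -0.41).

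At the other end stood Mrpl32, at chr13:14608184-14613165 on the minus strand, whose product is cut by the mitochondrial m-AAA protease before it enters the large subunit, as shown in yeast and mouse. It had 2128 counts (45.8 CPM) with brequinar and 1577 counts (31.9 CPM) with vehicle. This was 1.44-fold higher with an interval of 1.35 to 1.54, so its interval spans the 1.5-fold limit. Mrpl42 (chr10:95480805-95501940, minus strand), which encodes a mitochondria-specific protein of the large subunit, had 3992 and 3176 counts in the brequinar and vehicle libraries. Its level was 85.9 CPM with brequinar and 64.2 CPM with vehicle, 1.34-fold higher with an interval of 1.28 to 1.40.

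Mrps30 had 35.4 CPM with brequinar and 27.2 CPM with vehicle (log2 ratio 0.38). Its product sits on the large subunit although its symbol names the small one. Mrpl1, which encodes the protein of the mobile stalk near the exit site for tRNA, had 30.9 and 24.1 CPM in the brequinar and vehicle libraries (0.36). Mrps22, a small-subunit gene mutated in a human mitochondrial disease, had 20.1 and 16.1 CPM (0.32). Mrpl40 (57.9 and 47.1 CPM, 0.30), Mrpl13 (67.9 and 56.0 CPM, 0.28) and Mrps18a (45.9 and 38.2 CPM, 0.26) closed the 8 highest, each with the brequinar level before the vehicle level. The 43 measured members outside the named sets had log2 ratios between -0.31 (Mrpl23) and 0.23 (Mrpl35).

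Reads of some members may be shared with other annotated features. Exons of 7 members overlap another gene on the same strand and those of 28 overlap a gene on the opposite strand. Of the 70 measured members free of same-strand overlap 35 lay above 0 and 35 below. Processed pseudogenes of Mrps36, Mrpl23 and Mrpl48 are annotated too. Mrpl23-ps1 had 81 counts with brequinar and 90 with vehicle, Mrpl48-ps had 31 in each, and the 3 copies of Mrps36 had at most 12.

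**Figure D3:**
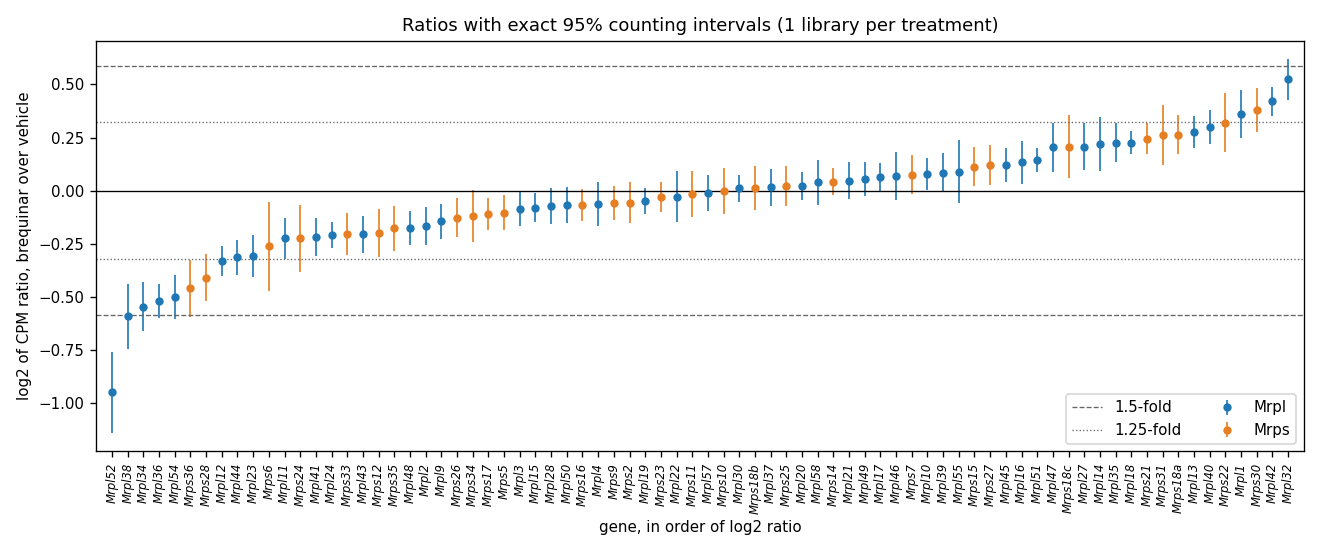
Log2 ratio of brequinar over vehicle for each of the 76 members in order (points), with exact 95% counting intervals (bars) and dashed lines at 1.5-fold and dotted lines at 0.32 on either side of 0. Mrpl52 at -0.94 and Mrpl38 at -0.59 are the points beyond the lower 1.5-fold line, no point lies beyond the upper one, and 64 of 76 points lie between the dotted lines.

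The promoters of a pair of genes from each end are shown so that the ends can be compared in sequence. Each line runs 5′ to 3′ on the gene's strand from 250 bases before to 50 bases after the start annotated by RefSeq (GRCm38.p6), and Mrpl38 was not in that table. The windows are chr14:54426659-54426958 (plus strand) for Mrpl52, chr8:71464676-71464975 (plus strand) for Mrpl34, chr13:14612988-14613287 (minus strand) for Mrpl32 and chr10:95501900-95502199 (minus strand) for Mrpl42. Capitals mark matches, on either strand, to one of 4 motifs: GCATGCGC (NRF1), CCGGAAGT (ETS factors such as GABPA), AAGATGGC (YY1) and CACGTG (E-box).
Mrpl52: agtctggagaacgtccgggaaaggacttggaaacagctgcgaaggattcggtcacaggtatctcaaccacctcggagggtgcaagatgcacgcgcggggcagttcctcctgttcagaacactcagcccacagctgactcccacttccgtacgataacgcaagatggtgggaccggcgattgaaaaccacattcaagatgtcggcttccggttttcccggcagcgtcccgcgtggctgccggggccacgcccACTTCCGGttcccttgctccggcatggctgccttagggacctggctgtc
Mrpl34: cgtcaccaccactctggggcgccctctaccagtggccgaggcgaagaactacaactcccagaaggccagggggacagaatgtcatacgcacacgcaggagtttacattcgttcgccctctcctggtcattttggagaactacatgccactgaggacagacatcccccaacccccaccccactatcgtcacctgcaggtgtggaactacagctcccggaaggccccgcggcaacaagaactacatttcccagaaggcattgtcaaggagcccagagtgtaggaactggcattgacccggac
Mrpl32: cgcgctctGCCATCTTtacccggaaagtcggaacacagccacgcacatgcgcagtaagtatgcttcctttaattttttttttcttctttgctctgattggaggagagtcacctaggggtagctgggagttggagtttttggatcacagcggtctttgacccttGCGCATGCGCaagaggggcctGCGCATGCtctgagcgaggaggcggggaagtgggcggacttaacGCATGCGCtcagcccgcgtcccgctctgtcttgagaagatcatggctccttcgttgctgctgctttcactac
Mrpl42: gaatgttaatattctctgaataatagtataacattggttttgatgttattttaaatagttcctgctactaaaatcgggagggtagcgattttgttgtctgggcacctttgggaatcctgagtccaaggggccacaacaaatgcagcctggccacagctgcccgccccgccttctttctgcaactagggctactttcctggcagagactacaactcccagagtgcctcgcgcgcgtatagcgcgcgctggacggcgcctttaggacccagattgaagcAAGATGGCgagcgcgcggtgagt
The Mrpl32 window held 4 matches to the NRF1 letters, of which a pair overlap in 1 stretch, and 1 match to the YY1 letters. Its RefSeq start lies inside the Mrpl32 gene as placed above (chr13:14608184-14613165). By that placement the 4 NRF1 matches lie within the gene and not upstream of it. The YY1 match lies within the neighbouring gene Psma2. The Mrpl52 window held 1 ETS match right after the start, the Mrpl42 window 1 YY1 match downstream of the start, and the Mrpl34 window none.

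These windows could be read for 67 of the 76 members and for 8384 other protein-coding genes that met the same minimum. The YY1 letters were present in 12 of the 67 members (17.9%) and 5.26% of the other genes. The NRF1 letters were present in 7 members (10.4%) and 5.96% of the others, and the ETS letters in 10 (14.9%) and 9.49%. The E-box letters were present in 5 members (7.46%) and 10.7% of the others. Median log2 ratios of members with and without the YY1 letters were 0.07 and 0.00, and with and without the NRF1 letters 0.06 and 0.01. For the ETS letters they were 0.13 and 0.01. A match describes the letters of the window only and is not evidence of binding. The promoter windows of the members had a median GC content of 58.3%, against 61% in the other genes.

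Of 3 sites on the large subunit that were listed separately, the stalk had the lowest median. The stalk receives translation factors on the large subunit, and 4 of its 5 listed genes were measured, with a median log2 ratio of -0.28. Mrpl12, the stalk protein that contacts the factors, had 62.2 CPM with brequinar and 78.1 CPM with vehicle (-0.33). Mrpl11, at the stalk base, had 33.5 and 39.1 CPM in the brequinar and vehicle libraries (-0.22). Mrpl10, which anchors Mrpl12, had 62.3 and 59.0 CPM, a log2 ratio of 0.08 that was -0.01 with scaling by total counts. With that scaling all 4 measured stalk genes lay below 0, but the median of all genes was then -0.09 and Mrpl10 lay above it. Under the adjustment for length and GC content, Mrpl54 was at -0.13, Mrpl12 at -0.16, Mrpl11 at -0.23 and Mrpl10 at 0.18.

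The fifth stalk gene, Mrpl53, was the only member without a read. It had 0 counts in both libraries, where 3 counts, the limit that a count of 0 allows, would be 0.0646 CPM with brequinar and 0.0606 CPM with vehicle. Of its exons at chr6:83109040-83109939, 695 bases lie inside exons of another gene on the same strand, Gm42688. That gene had 344 and 511 counts in the brequinar and vehicle libraries. Reads from this place could have been set aside or given to Gm42688, and no statement on the level of Mrpl53 is made. Mrpl33 was not matched to the table and is not analysed here.

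Around the exit tunnel, where the new protein leaves the large subunit, 7 genes had a median log2 ratio of -0.03. Mrpl45, which in human ties the ribosome to the inner membrane, had 56.9 CPM with brequinar and 52.3 CPM with vehicle (0.12). Mrpl44, which carries a ribonuclease III fold and is mutated in a human cardiomyopathy, had 46.2 and 57.3 CPM in the brequinar and vehicle libraries (-0.31). Mrpl24 had 82.2 and 95 CPM (-0.21). Members of this site thus stood on both sides of 0. The 6 genes of the central protuberance had a median of 0.14 and spanned -0.59 (Mrpl38) to 0.30 (Mrpl40).

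Further members were read whatever their values. Mrpl58, a peptidyl-tRNA hydrolase built into the large subunit, had 31.2 CPM with brequinar and 30.3 CPM with vehicle, and its interval of 0.955 to 1.11 held 1. Mrps12, the protein of the decoding centre, had 25.3 and 29.1 CPM in the brequinar and vehicle libraries (log2 ratio -0.20). Mrps27, a pentatricopeptide repeat protein of the small subunit, had 39.3 and 36.2 CPM (0.12). The Mrps18 paralogs all descend from the bacterial S18 protein, and each occupies its own place: Mrps18a on the large subunit, Mrps18b and Mrps18c on the small one. Mrps18a was 1.20-fold higher (interval 1.13 to 1.28). Mrps18b had 32.3 CPM with brequinar and 32.0 CPM with vehicle, and its ratio of 1.01 had an interval of 0.939 to 1.08. Mrps18c had 16.9 and 14.6 CPM in the brequinar and vehicle libraries, a log2 ratio of 0.21. Its exons share 250 bases with the gene Gm43511 on the same strand, so its counts are less certain.

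Levels differed far more between members than between libraries. Per kilobase of the longest annotated transcript, the median level was 21.5 CPM per kilobase with brequinar and 20.1 with vehicle. The highest member exceeded the lowest 22.2-fold in the brequinar library and 23.4-fold in the vehicle library. The order was nearly the same in both, with a Spearman correlation of 0.969 across the 76 genes, which are not independent replicates and share the 2 libraries. By the mean of both libraries, the top 5 were Mrps21 (135 CPM per kilobase with brequinar and 114 with vehicle), Mrpl18 (109.7 and 93.7), Mrpl20 (97.8 and 96.2), Mrpl24 (61.4 and 70.9) and Mrpl36 (48 and 68.7). Mrps21 encodes a small-subunit protein with a bacterial counterpart, and Mrpl18 and Mrpl20 are large-subunit genes of bacterial descent. The bottom 5 by that mean were Mrps22 (6.09 and 4.87), Mrps25 (6.24 and 6.14), Mrps31 (7.11 and 5.94), Mrps35 (6.34 and 7.17) and Mrps6 (6.53 and 7.81). Exons of Mrps6 overlap the genes Gm49711 and Slc5a3 on the same strand, so its counts are less certain. In the vehicle library alone, Mrpl1 (6.77) and Mrpl47 (7.02) lay below Mrps35 and Mrps6. Cytosolic ribosomal protein genes had a median of 701 CPM per kilobase with brequinar and 1120 with vehicle, above the highest member. Levels per kilobase depended on the transcript used: with the longest transcript annotated as protein-coding, Mrpl42 moved from rank 36 to rank 2 and Mrps22 from 76 to 57, and the bottom 5 were Mrps25, Mrps35, Mrpl47, Mrpl1 and Mrps30.

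**Figure D4:**
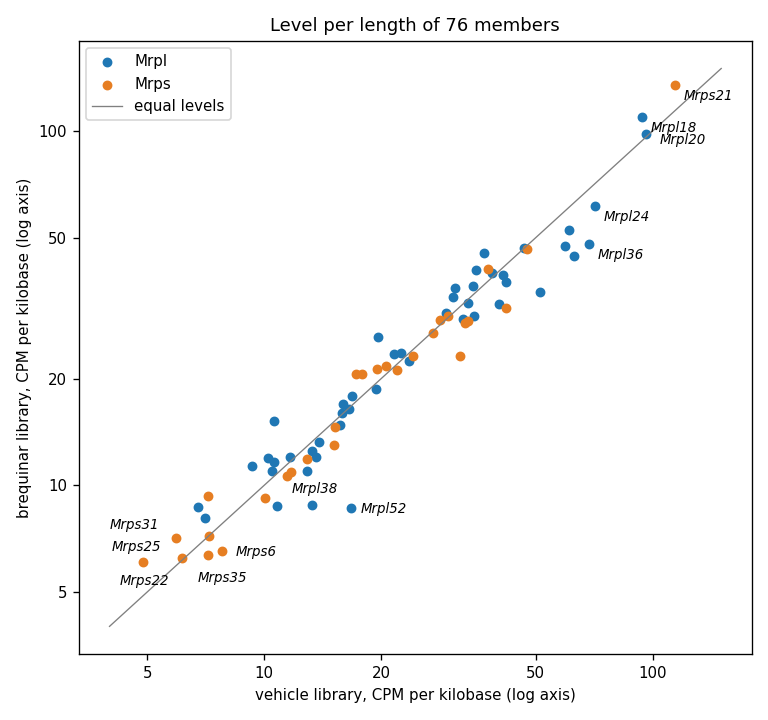
Level per kilobase of the longest transcript in the brequinar library (vertical axis) against the vehicle library (horizontal axis), in CPM per kilobase on log axes, for 76 members, with a line of equal levels. The points follow the line over a 22.2-fold range, and Mrpl52 and Mrpl38 lie below it.

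Short transcripts were common at the low end. Of the 8 members with the lowest log2 ratio, 6 had a longest transcript under 1000 bases, of the 8 highest 0, and of all 76 members 16. Those 16 short members had a median log2 ratio of -0.21. For 414 other protein-coding genes of that length, with cytosolic ribosomal protein genes left out, it was -0.04. The 33 cytosolic ribosomal protein genes of that length had a median of -0.67. In the other length classes the members' median was between -0.02 and 0.03. Across members the log2 ratio had a Spearman correlation of 0.25 with transcript length and -0.31 with GC content, against 0.06 and -0.16 across 10535 protein-coding genes. With the longest coding transcript instead, the correlation with length was 0.16 across members and 0.07 across 10532 protein-coding genes. That transcript was under 1000 bases for Mrpl42 (666 bases) and Mrps18a (884 bases), both among the 8 highest, so the contrast in length depended on the transcript used. The part of length and GC content in the low ratios was not tested. With a lowess adjustment for both, Mrpl52 stayed past 1.5-fold lower at -0.70, Mrpl38 was at -0.41 and Mrpl36 at -0.31. The other genes of the 8 lowest came closer to 0, with Mrps36 at -0.23, Mrpl34 at -0.20, Mrpl12 at -0.16, and Mrps28 and Mrpl54 both at -0.13. Mrps21, the member with the shortest longest transcript, passed 1.5-fold higher at 0.60 with the adjustment, against 0.25 without it.

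Many members start next to another gene that runs the opposite way. A start on the opposite strand lay within 1000 bases of the member's own start, with the genes apart or overlapping at their 5′ ends, for 33 of the 76 members (43.4%). Such a head-to-head neighbour was annotated for 17.7% of 10467 other protein-coding genes and for 20.8% of cytosolic ribosomal protein genes. The 33 members formed 32 pairs, since Mrps11 and Mrpl46 are each other's neighbour, and in 14 pairs the annotated genes overlap at their starts. The strand setting of the counting is not stated in the sources used here, so reads in such overlaps may be shared.

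In the 29 pairs with both genes measured, 6 pairs had both log2 ratios above 0, 9 had both below 0 and 14 had opposite signs. Neighbours had a median log2 ratio of -0.11 and ran from -0.60 to 0.94. Mrpl32 and its neighbour Psma2, a proteasome subunit gene whose start lies 75 bases away, were both higher with brequinar. Psma2 had 389.8 CPM with brequinar and 315 CPM with vehicle (0.31). Rab6a, a gene of vesicle traffic that overlaps the start of Mrpl48, had 188 CPM with brequinar and 118 CPM with vehicle (0.67), while Mrpl48 had a ratio of -0.18. Mitd1, next to Mrpl30, had 29.4 and 18.9 CPM in the brequinar and vehicle libraries (0.64), while Mrpl30 was at 0.01. Of the 29 neighbours 3 were at least 1.5-fold higher and 1 at least 1.5-fold lower, beside 12.7% of all genes in each direction. No member of a pair passed 1.5-fold.

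**Figure D5:**
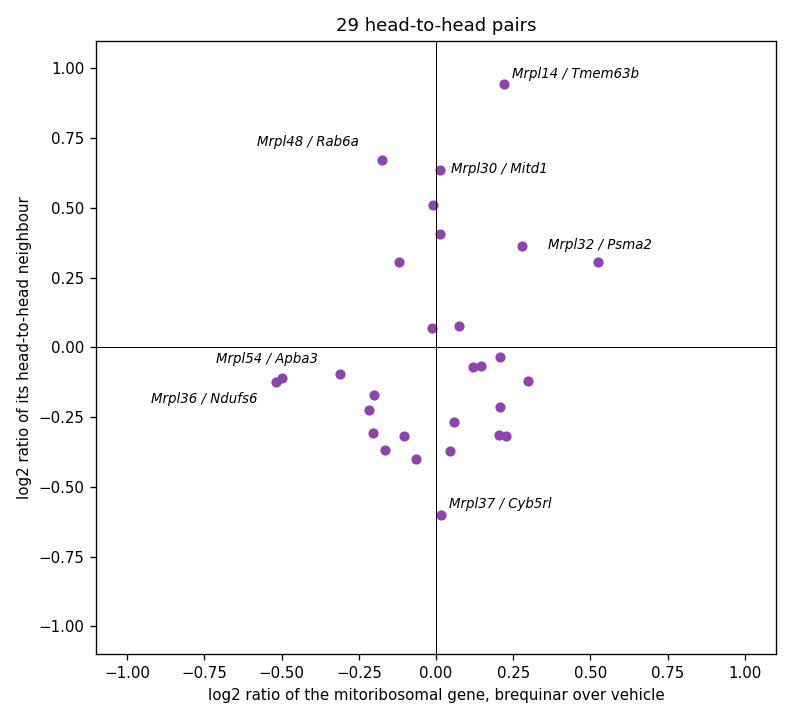
Log2 ratio of the head-to-head neighbour (vertical axis) against that of the mitochondrial ribosomal protein gene (horizontal axis), brequinar over vehicle, for 29 pairs. The points are spread over all 4 quadrants, with neighbours from -0.60 to 0.94 and members between -0.52 and 0.52.

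Genes that work with the mitochondrial ribosome were read from lists of their own. Ribosomal proteins without an Mrp symbol, 5 in all, resembled the members, with a median log2 ratio of 0.02 and none past 1.5-fold. Chchd1 had 43.9 CPM with brequinar and 33.1 CPM with vehicle (0.41), Aurkaip1 had 76.9 and 83.9 CPM (-0.13), and Dap3, a GTP-binding protein of the small subunit, had 88.0 and 84.5 CPM (0.06).

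Translation factors had a median of -0.20, with 10 of 15 below 0 and none past 1.5-fold, and of -0.12 without the minimum of 1 CPM, which adds Mtif3 and Pdf. Lrpprc, which stabilises mitochondrial mRNAs, had 71.0 CPM with brequinar and 101.9 CPM with vehicle (-0.52). Metap1d, the methionine aminopeptidase of mitochondria, had 4.84 and 6.79 CPM in the brequinar and vehicle libraries (-0.48), and Guf1, a translational GTPase, had 20.7 and 27.3 CPM (-0.40). Of 27 genes for ribosome assembly and rRNA modification, 16 lay below 0, with a median of -0.12. Mettl17, needed for small-subunit assembly, was the gene of that list past 1.5-fold, at 4.84 CPM with brequinar and 8.29 CPM with vehicle (-0.77). Rcc1l and Mpv17l2, both assembly factors, had 13.5 and 18.8 CPM (-0.48) and 13.7 and 18.8 CPM (-0.46), the brequinar level first in each pair of values.

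Mitochondrial transcription genes had a median of -0.20, with 8 of 10 below 0 and none past 1.5-fold. Polrmt, the RNA polymerase of mitochondria, had 19.5 CPM with brequinar and 28.0 CPM with vehicle (-0.52). Tfb2m, its initiation factor, had 14.0 and 19.5 CPM in the brequinar and vehicle libraries (-0.48), and Mterf2 had 2.32 and 3.40 CPM (-0.54).

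The mRNAs that the mitochondrial ribosome translates had a lower median than the genes of the ribosome itself. Of 13 mitochondrially encoded mRNAs, 12 had a log2 ratio below 0, the median was -0.43, and 5 were at least 1.5-fold lower. Their sum was 13066 CPM with brequinar and 15218 CPM with vehicle, a log2 ratio of -0.22, nearer 0 than the median. The most abundant, mt-Co1, had 7184 CPM with brequinar and 7743 CPM with vehicle (-0.11). The lowest ratios were those of mRNAs with few counts, mt-Nd3 (74 counts with brequinar and 163 with vehicle, -1.03), mt-Nd4l (39 and 69 counts, -0.70) and mt-Atp8 (202 and 334 counts, -0.63). The exception was mt-Nd6, at 12.1 CPM with brequinar and 8.37 CPM with vehicle (0.53), named after its value was seen.

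Nuclear regulators of these genes differed little. Of 9 listed 7 were measured, with a median log2 ratio of 0.12 and none past 1.5-fold. The median was 0.05 without the minimum of 1 CPM. Gabpb1, a subunit of the ETS factor GABP, had 58.4 CPM with brequinar and 46.5 CPM with vehicle (0.33). Esrra, a nuclear receptor of mitochondrial genes, had 36.3 and 30.0 CPM in the brequinar and vehicle libraries (0.28), and Myc had 97.5 and 118 CPM (-0.27). Ppargc1a and Ppargc1b, coactivators of mitochondrial biogenesis, were below the minimum, with 8 and 14 counts and 1 and 5 counts in the brequinar and vehicle libraries.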

How the data were processed

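Libraries were strand-preserving, made from mRNA captured on oligo(dT), and read as pairs of 101 bases, per the labels' protocols. The authors deposited raw read counts for each gene, as whole numbers with no normalization. The tools include STAR 2.4.2a and Picard 1.99 and 2.2.4, with build mm10, per the submitters' processing notes. How reads were counted, with which strand option and on which annotation, is not stated in the sources used here. Lines that name no gene held 20.2% of reads in the brequinar library and 21.6% in the vehicle library and were left out of library sizes.

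Identifiers were matched without version to GENCODE M21 (GRCm38, the assembly mm10 also names), which gave 44671 symbols. Scaling used TMM factors of 0.969 (brequinar) and 1.03 (vehicle), from edgeR 4.0.16 under R 4.3.3. The log2 ratio is brequinar over vehicle with a prior count of 2, for genes whose mean over both libraries reached 1 CPM. With 1 library per group a fixed size of 1.5-fold was used, with 2-fold and a log2 ratio of 0.32 beside it. Intervals are exact (Clopper-Pearson, 95%), conditional on the summed count. They cover counting error only, because each group has 1 library and no replicate error enters them. PCR copies were not marked by molecular identifiers, so the intervals may be too narrow even for counting error. The floor for a count of 0 was 3 counts. Promoters came from RefSeq (GRCm38.p6). Procedures were tested on simulated counts.

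The members and lists were chosen with earlier results of these data known. Named members were the 8 highest and 8 lowest ratios, the 5 highest and 5 lowest levels per kilobase, every member past 1.5-fold or below the minimum, and a set named whatever its values. That set was Mrpl10, Mrpl11, Mrpl12, Mrpl44, Mrpl45, Mrpl58, Mrps12, Mrps18a, Mrps18b, Mrps18c, Mrps22, Mrps27, Mrps30 and Mrps36. From each other list of the pathway the 3 largest absolute ratios were named, except for 1 gene that is not reported here. The genes mt-Nd6 and mt-Co1 were chosen after their values were seen. Mrpl18 and other members in head-to-head pairs or with overlaps, and their neighbours, are named where those features are described. Other settings tried were scaling by total counts, by upper quartile or by size factors of DESeq2 1.42.0, other filters, prior counts of 0.5 and 5, thresholds and transcript lengths. A lowess adjustment for length and GC content (span 0.3), the removal of overlapped members and the coding transcript length were added after seeing the data. Tables and figures were made in Python 3.11.15 (pandas 2.3.3, numpy 2.4.6, statsmodels 0.14.6, scipy 1.17.1, matplotlib 3.10.9).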

Additional observations from a re-analysis of the deposited data

How the results depend on the processing

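Scaling by total counts alone shifted all genes to a median log2 ratio of -0.09 and the members to -0.10, with 5 members at least 1.5-fold lower (Mrpl52, Mrpl38, Mrpl34, Mrpl36 and Mrpl54). The medians were then -0.29 for mitochondrial transcription, -0.52 for mitochondrially encoded mRNAs, 0.029 for the nuclear regulators and -0.76 for cytosolic ribosomal proteins. With upper-quartile scaling the mitochondrially encoded mRNAs had -0.46 and the cytosolic ribosomal proteins -0.71. With a minimum of 5 CPM the mitochondrially encoded mRNAs had -0.38. Without a minimum, the median was -0.12 for the translation factors and 0.05 for the nuclear regulators. Under the lowess adjustment, which put the regulators at 0.05 and was added after seeing the data, 1 member was at least 1.5-fold higher (Mrps21) and 1 at least 1.5-fold lower (Mrpl52), and the cytosolic median was -0.51. A limit of 2-fold gave 0 members lower, a log2 limit of 0.32 in size 4 higher and 8 lower, and the counting interval 22 higher and 27 lower. The median level per kilobase with brequinar was 16.1 over the union of exons and 26.7 over the longest coding transcript, against 21.5. These moves follow from the altered scaling, filter, limit or length, and no further cause was tested. Of 264 values of single members under the alternatives, 231 lay inside the counting interval of the main ratio and 33 outside it. Those outside came from 2 settings, total counts (13 of 33 named members) and the lowess adjustment (20 of 33). The other filters cannot change a member's own ratio, so their values were inside by construction. Of the 264, 10 values in 6 members lay on the other side of 0: Mrpl10 and Mrpl58 under total counts, Mrpl20 and Mrps18b under total counts and upper quartile, Mrps25 under both of these and the lowess adjustment, and Mrps12 (0.06) under the lowess adjustment. No paired analysis was possible because each group has 1 library, and no replicate could be left out.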
